A study of Caenorhabditis elegans with 2 samples.

Results

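The genes described here are the unclassified noncoding RNA (ncRNA) genes of Caenorhabditis elegans, set against the binding sites of the protein encoded by Y79H2A.3, which the reference annotation describes as containing zinc fingers. They are all genes on the 6 nuclear chromosomes whose biotype is exactly ncRNA in Ensembl release 115 of the WBcel235 assembly, 7764 of 46890 nuclear genes. A gene was called bound when a peak's summit fell within its window, which ran from 1000 bp before to 200 bp after each of its annotated starts. Of the 7764 genes, 184 were bound and 7580 were not. A bound gene was called bound alone when the windows of protein-coding, tRNA, snoRNA and snRNA genes held none of its peaks, which left 36 genes, and the other 148 were bound at a shared peak.

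The study has 1 group with 2 biological replicates. The animals were whole young adults of strain RW12273, 63 hours old, carrying the CRISPR insertion st12273[Y79H2A.3::TY1::EGFP::3xFLAG] III, and were synchronised by starving first-stage larvae hatched from bleached adults. Sonicated chromatin was precipitated with an antibody against GFP. Whole animals mix all tissues, so the cell types behind a peak are not known, and all samples came from 1 strain. No untagged strain, input or second condition was analysed here, so no comparison between groups was made and no p-value is given. The 1021 peaks of the conservative list, which holds sites found by comparing the replicates, were used throughout unless another list is named. The files hold no read counts, so depth is unknown. The height of a peak is its deposited signal value, the authors' own measure, on a scale the sources used here do not state.

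Unclassified ncRNA genes are short transcripts, found largely by sequencing, that carry no assigned family. The class also holds a few RNAs of known function that the biotype does not separate, among them the RNA of RNase P, which trims tRNA precursors, and the RNA of the signal recognition particle, which brings secreted proteins to the membrane. tRNA genes, and in many animals RNase P and signal recognition particle RNA genes, are transcribed by RNA polymerase III, with promoter elements called the A box and the B box inside the transcribed sequence of tRNA genes. In the annotation used, the median length of the unclassified ncRNA genes was 140 bp, from 17 to 14770 bp, and the median of the 184 bound genes was 135.5 bp. RefSeq gave the product of 7762 of the 7764 genes as an unclassified non-coding RNA.

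The sequences under the tallest peaks bound alone showed that 2 of them held related, diverged sequence. The peak upstream of C46C2.12, at 288 the tallest of the 160 peaks in windows of unclassified ncRNA genes, and the peak upstream of WBGene00195021, at 188, both on chromosome IV, could be aligned over 144 columns on opposite strands with 109 identical bases (75.7% identity). The 300 bases around each summit are given 5′ to 3′ from the RefSeq sequence of WBcel235, and capitals mark the aligned block. The first is chrIV:9196292-9196591 on the plus strand and the second chrIV:4725446-4725745 on the minus strand.
C46C2.12: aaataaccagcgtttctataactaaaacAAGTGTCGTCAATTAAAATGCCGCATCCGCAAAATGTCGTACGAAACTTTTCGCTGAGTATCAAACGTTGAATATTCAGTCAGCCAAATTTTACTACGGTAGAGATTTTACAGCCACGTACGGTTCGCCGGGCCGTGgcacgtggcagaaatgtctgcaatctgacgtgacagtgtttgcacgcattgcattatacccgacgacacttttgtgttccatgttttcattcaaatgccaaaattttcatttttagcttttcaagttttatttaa
WBGene00195021: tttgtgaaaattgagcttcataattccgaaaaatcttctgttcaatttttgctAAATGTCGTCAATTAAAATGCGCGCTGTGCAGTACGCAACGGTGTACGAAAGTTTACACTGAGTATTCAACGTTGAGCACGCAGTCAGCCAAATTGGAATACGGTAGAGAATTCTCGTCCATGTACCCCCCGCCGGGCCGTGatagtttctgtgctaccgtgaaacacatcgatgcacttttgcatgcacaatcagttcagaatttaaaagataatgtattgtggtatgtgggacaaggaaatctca

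The window of C46C2.12 had 21 other matches of at least 100 bases in the genome, and 6 of them held the summit of another peak of the conservative list. The window of WBGene00195021 had 25 other matches, of which 7 held a summit. Among the matches that held a summit, the highest identity was 98.2% for C46C2.12 and 94.7% for WBGene00195021. Together these summits belong to 8 peaks, 2 in windows of unclassified ncRNA genes, 3 in windows of other genes and 3 in no gene's window. Their heights were 298, 288, 257, 214, 188, 131, 100 and 83.6, and 3 of the 8 were among the 20 tallest of the 1021 peaks. The shared sequence therefore also lay under tall peaks that have no unclassified ncRNA gene in reach. Of all 31-base words in the window, 61.1% occurred once in the genome for C46C2.12 and 50% for WBGene00195021, so reads from these copies can be hard to place, and the part of this in the heights was not tested. Matches between peaks were not particular to these genes: 6 of 35 windows bound alone (17.1%), 19 of 125 shared windows (15.2%) and 161 of all 1021 (15.8%) matched a sequence under another peak.

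A further pair of the tallest peaks bound alone lay within or beside the gene they are named for, and capitals in the next sequences mark the bases of that gene. The first is chrV:10019109-10019408, with a height of 129, and its summit lay 31 bp upstream of K08H10.14 and 738 bp upstream of K08H10.15, which is transcribed the other way. The second is chrIV:11025988-11026287, with a height of 112, where the summit lay 81 bp inside F36H1.17 and 26 bp upstream of the microRNA gene cel-mir-51. Both are on the plus strand of WBcel235 and neither had another match in the genome. The peaks of rpr-1 and C55B7.13 were not considered for display. Of the 8 tallest others bound alone, 4 had UTR bases in the window and are not shown.
K08H10.14: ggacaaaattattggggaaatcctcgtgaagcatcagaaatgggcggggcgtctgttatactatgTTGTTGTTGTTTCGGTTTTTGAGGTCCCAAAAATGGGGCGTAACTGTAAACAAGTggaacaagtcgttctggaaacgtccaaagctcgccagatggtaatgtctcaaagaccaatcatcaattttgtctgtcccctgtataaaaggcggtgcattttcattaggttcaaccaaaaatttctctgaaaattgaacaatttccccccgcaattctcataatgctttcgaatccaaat
F36H1.17: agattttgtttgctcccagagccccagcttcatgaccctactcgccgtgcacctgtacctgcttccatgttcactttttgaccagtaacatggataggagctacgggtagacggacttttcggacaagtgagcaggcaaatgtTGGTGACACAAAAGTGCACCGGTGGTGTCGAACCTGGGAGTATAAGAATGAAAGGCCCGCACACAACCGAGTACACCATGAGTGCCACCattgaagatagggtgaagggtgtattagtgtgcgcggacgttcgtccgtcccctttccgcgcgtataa

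A sequence that recurred at shared peaks was the B box of tRNA genes. The letters GTTCGANTC, searched on both strands of 300 bases around the summit, occurred in 28 of the 57 windows shared with tRNA genes (49.1%) and in 0 of the 68 windows shared with other classes only, which allows a share of up to 5.28% by the exact 95% interval. They occurred in 48 of all 1021 peaks (4.70%) and around the starts of 257 of all 7764 unclassified ncRNA genes (3.31%). The 57 windows were grouped by having a tRNA gene in reach, and the B box is part of tRNA genes. The contrast is therefore largely fixed by the grouping and says nothing about binding. The share over all tRNA genes, bound or not, was not counted. Below are 200 bases around the summits of the 2 tallest peaks with the motif in the later part of a tRNA gene, with the B box in capitals, and 300 bases around a summit bound alone that holds the same letters. The first, chrX:9743619-9743818 (plus strand), has its summit between 2 tRNA-Ala genes, reaches into both, and carries parts of F15G9.8 and F15G9.9. Its capitals mark the tRNA-Ala gene whose start lies 130 bp from the summit. The other, whose start lies 28 bp from the summit, has no exact match to the letters. The second, chrX:3036035-3036234 (plus strand), carries part of M02F4.12 and a tRNA-Gly gene. Another tRNA gene, WBGene00023111, has its start 88 bp from the summit. The third, chrV:14237562-14237861 (minus strand), lies at K02E11.15, chosen for display after its values were seen. Its letters lie at the edge of the window, outside the K02E11.15 gene, unlike the B box of the tRNA genes.
F15G9.8: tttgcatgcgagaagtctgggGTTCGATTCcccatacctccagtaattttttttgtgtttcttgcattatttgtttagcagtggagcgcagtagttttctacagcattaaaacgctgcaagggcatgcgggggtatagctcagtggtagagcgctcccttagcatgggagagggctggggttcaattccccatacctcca
M02F4.12: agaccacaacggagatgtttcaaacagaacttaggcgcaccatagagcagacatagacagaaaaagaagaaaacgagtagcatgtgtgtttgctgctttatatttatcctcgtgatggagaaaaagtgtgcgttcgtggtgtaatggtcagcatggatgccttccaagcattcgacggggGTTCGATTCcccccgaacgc
K02E11.15: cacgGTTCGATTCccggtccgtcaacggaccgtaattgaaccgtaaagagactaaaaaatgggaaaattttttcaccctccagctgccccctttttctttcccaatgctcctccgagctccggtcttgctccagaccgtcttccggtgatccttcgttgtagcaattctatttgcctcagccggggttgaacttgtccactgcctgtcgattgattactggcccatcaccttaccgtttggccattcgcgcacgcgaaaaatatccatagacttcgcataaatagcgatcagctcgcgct

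The 300 bases at K02E11.15, a 167 bp gene with a peak of 68.8 whose summit lay 103 bp inside it, had 21 other matches in the genome with a median identity of 95.6%. Of these, 4 held summits of other peaks, with heights from 73.1 to 85.9, and none of those 4 lay in any gene's window. Only 25.9% of its 31-base words occurred once in the genome. The other peak bound alone with the letters of the B box was that of W08F4.15, at 52.1, where the summit lay 649 bp upstream of the gene in an exon of a coding gene and the window had no other match.

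Unclassified ncRNA genes were bound about as often as genes in general. Of the 7764 genes, 184 had a summit in the window (2.37%, exact 95% interval 2.04 to 2.73), against 1032 of all 46890 nuclear genes (2.2%) and 848 of the 39126 nuclear genes of other classes (2.17%, interval 2.03 to 2.32). These intervals cover counting over genes only, and neighbouring genes that share a peak are not independent. The share lay below that of snoRNA genes (19.1%, 66 of 346), tRNA genes (15.4%, 94 of 612) and snRNA genes (14.7%, 19 of 129). It lay above that of piRNA genes (0.365%, 56 of 15363) and pseudogenes (1.41%, 30 of 2128). The share was lower than that of protein-coding genes (2.88%, 575 of 19973, interval 2.65 to 3.12), and these 2 intervals overlapped only narrowly. For microRNA genes it was 2.30% (6 of 261, interval 0.848 to 4.94). Overlap of intervals does not show that shares are equal.

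**Figure D1:**
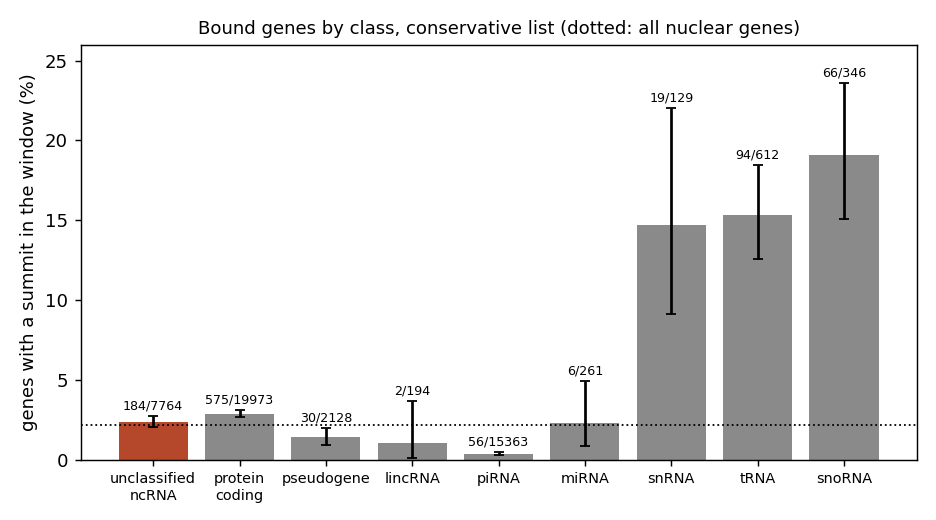
Percent of genes of each class with a summit of the conservative list in the window, with exact 95% intervals as error bars, the number bound of all genes above each bar, and the share of all nuclear genes (2.2%) as a dotted line. The unclassified ncRNA genes (2.37%) sit near the dotted line, and the snRNA, tRNA and snoRNA genes sit well above it; 2 classes with 0 bound genes, antisense RNA (100 genes) and rRNA (20 genes), are left out.

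The single-replicate lists gave the same order of size with fewer genes. The list of replicate 1 alone bound 72 unclassified ncRNA genes (0.927%, against 0.998% of all nuclear genes). The list of replicate 2 alone bound 69 (0.889%, against 0.868%), and the list from the pooled reads bound 171 (2.202%, against 1.97%). In each list the share was close to that of all nuclear genes.

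Genes bound alone were a small share. The 36 genes are 19.6% of the bound ones and 0.464% of all 7764 (interval 0.325 to 0.641), against 90 of the 25830 nuclear genes outside the 4 classes that were bound alone by the same rule (0.348%). By the same rule 18 of 2128 pseudogenes (0.846%), 33 of 15363 piRNA genes (0.215%) and 3 of 261 microRNA genes (1.15%) were bound alone. The remaining 148 genes, 1.91% of all, had a peak in reach of a gene of the 4 classes. Of these, 82 (55.4%) shared with a protein-coding gene, 68 (45.9%) with a tRNA gene, 20 with a snoRNA gene and 13 with an snRNA gene, and some shared with more than 1 class.

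The neighbour of an unclassified ncRNA gene went with whether it was bound. Of the 618 genes whose window met the window of a tRNA, snoRNA or snRNA gene, 105 were bound (16.99%, interval 14.1 to 20.2). Of the 3212 whose window met a coding window but none of those, 56 were bound (1.74%, interval 1.32 to 2.26). Of the 3934 whose window met none of the 4 classes, 23 were bound (0.585%, interval 0.371 to 0.876). Thus 57.1% of the bound genes came from the 7.96% of genes that lie beside tRNA, snoRNA or snRNA genes. Where windows overlap, a summit can lie in both by construction, so these shares do not say which gene of a pair the protein is at.

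Overlap with genes of these classes was most often with tRNA genes, on opposite strands. In all, 351 unclassified ncRNA genes overlapped a tRNA gene, and in all 351 cases the strands were opposite. Of these, 61 were bound (17.4%, interval 13.6 to 21.8). At 60 of these 61 the peak also lay in a tRNA window, and they are among the 68 bound at a peak shared with tRNA genes. The other is C06G4.7 (WBGene00199731), whose peak was shared with the coding gene C06G4.4. Seen from the other side, 63 of the 352 tRNA genes with an unclassified ncRNA gene on the opposite strand were bound (17.9%, interval 14.04 to 22.3), against 31 of the 260 tRNA genes without one (11.9%, interval 8.25 to 16.5), and these intervals overlap. Overlap with snoRNA and snRNA genes involved fewer genes: 13 of 38 genes that overlapped a snoRNA gene were bound (34.2%, interval 19.6 to 51.4) and 10 of 37 that overlapped an snRNA gene (27.0%, interval 13.8 to 44.1).

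Where a peak was shared, the summit usually lay nearer the start of the tRNA, snoRNA or snRNA gene than that of the unclassified ncRNA gene. With a tRNA gene as the nearest of the 4 classes, the median distance was 87.5 bp to the ncRNA start and 21.5 bp to the tRNA start, and the ncRNA start was nearer in 12 of 68 cases. With a snoRNA gene the medians were 122 and 37 bp, nearer in 4 of 19, and with an snRNA gene 162 and 28 bp, nearer in 1 of 10. With a protein-coding gene the order was the other way: 134 bp to the ncRNA start and 293 bp to the coding start, and the ncRNA start was nearer in 37 of 51 cases. Over all 148 shared genes the ncRNA start was nearer in 54, the other start in 93, and 1 was equal. The other start was the nearest among all genes of the 4 classes in reach, a choice that favours it. Cases were also grouped by the class of that start, and genes at 1 peak were counted separately. In 60 of the 68 tRNA cases the ncRNA gene overlapped a tRNA gene on the opposite strand. Starts of such genes lie towards opposite ends. The distances therefore do not say which gene the protein is at.

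**Figure D2:**
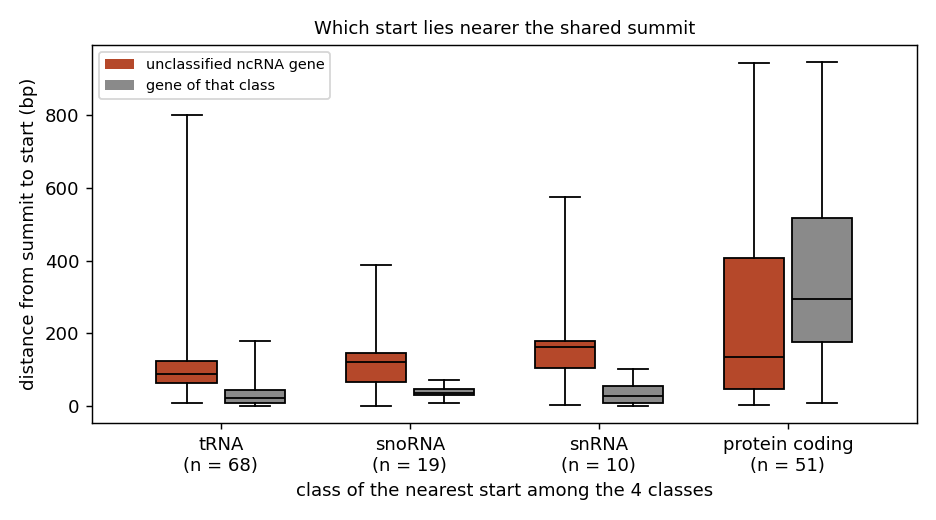
Distance in bp from the shared summit to the start of the unclassified ncRNA gene (left box of each pair) and to the nearest start of the 4 classes (right box), for the 148 genes at shared peaks, grouped by the class of that start. Boxes span the quartiles with the median as a line and whiskers reach the lowest and highest value; the ncRNA start lies farther away beside tRNA (median 87.5 against 21.5 bp), snoRNA and snRNA genes, and nearer beside coding genes (134 against 293 bp).

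The tRNA genes at these peaks covered many amino acids. The peaks in windows of unclassified ncRNA genes reached 71 tRNA genes of 17 amino acid types by RefSeq product, led by tRNA-Lys with 10 of its 46 genes, tRNA-Gly with 8 of 55 and tRNA-Pro with 8 of 42. Among the tallest was B0523.6 on chromosome III, a 92 bp gene (8678483 to 8678574) that overlaps a tRNA-Trp gene on the other strand. Its peak was 149 in the conservative list, with 70.6 in replicate 1 and 75.1 in replicate 2, and its summit lay 10 bp upstream of the tRNA start and 95 bp downstream of that of B0523.6. C33G3.12 on chromosome X (14064063 to 14064176) had a peak of 145, with 63.5 in replicate 1 and 75.8 in replicate 2. There the summit lay 57 bp inside a tRNA-Lys gene and 102 bp upstream of the ncRNA gene.

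The 3 tallest shared peaks lay beside snoRNA genes, which guide chemical changes of ribosomal and other RNAs. F59C6.19 on chromosome I (10516874 to 10516950) had a peak of 189, with 83.7 in replicate 1 and 99.0 in replicate 2, whose summit lay 72 bp upstream of the snoRNA gene F59C6.15 and 272 bp upstream of F59C6.19. Y23H5B.13 had a peak of 169 with the summit 37 bp upstream of the snoRNA gene Y23H5B.10, and T03F7.14 on chromosome V a peak of 166 with the summit 66 bp upstream of T03F7.8. In both, the summit lay downstream of the ncRNA start, by 181 and 124 bp. Over the 20 peaks shared with snoRNA genes the median height was 113, and 13 of them were in each single-replicate list. The 57 peaks shared with tRNA genes had a median of 79.5, and 14 and 12 of them were in the lists of replicates 1 and 2.

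Among the tall peaks shared with protein-coding genes, F26D10.23 on chromosome IV (17278413 to 17278502) lies in reach of hsp-1, a heat shock protein gene of the HSP70 family. Its peak was 158, with 76.5 in replicate 1 and 77.6 in replicate 2, 119 bp downstream of F26D10.23 and 427 bp upstream of hsp-1. Y48B6A.21 on chromosome II also had 158, with the summit 910 bp upstream of it and 823 bp upstream of the coding gene Y54G11A.2. F43D9.8 on chromosome III had 148, in reach of the coding genes taf-11.3 and sly-1. F26E4.16 and F26E4.14 shared a peak of 147 whose summit lay 8 bp inside cox-5B, which encodes a subunit of cytochrome c oxidase, and about 500 bp upstream of either ncRNA gene. Y37E3.29 had a peak of 151 in reach of the snoRNA gene Y37E3.20 and the coding gene pcyt-2.1. T19B4.9 had a peak of 139 beside the snoRNA gene T19B4.8, in no coding gene's window.

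Of the 1021 peaks, 160 (15.7%) had a summit in the window of an unclassified ncRNA gene, 35 bound alone and 125 shared. A peak counts as bound alone when its own summit lies in no window of the 4 classes. The 35 therefore include peaks of 2 genes counted as shared through another peak, Y37E3.29 (86.3) and Y73B6BL.283 (3.20). One such gene was in reach of 129 of them, 2 genes of 28, 3 genes of 2 and 4 genes of 1. The peak with 4 genes, on chromosome V with a height of 84.6, was in reach of T28B11.4, T28B11.14, T28B11.17 and T28B11.18. A peak of 77.7 on the same chromosome was in reach of T04C12.18, T04C12.23 and T04C12.24, upstream of the actin gene act-2. A peak of 89.4 on chromosome X was in reach of T04C10.7, T04C10.8 and T04C10.9. Genes at 1 peak share its height and are not separate measurements.

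Heights did not set these peaks apart. The 35 peaks bound alone had a median height of 83.0 (3.08 to 288), the 125 shared peaks 85.0 (3.25 to 189), and the 861 peaks outside these windows 82.7. In replicate 1 the medians were 36.9 for peaks bound alone and 41.2 for shared peaks, beside 41.2 for all 1021, and in replicate 2 they were 44.3 and 45.5, beside 45.5 for all. The replicate heights lay within 2-fold of each other at 34 of 35 peaks bound alone, 123 of 125 shared peaks and 1001 of all 1021. Of the 35 peaks bound alone, 12 were also in the list of replicate 1 alone (34.3%), 9 in that of replicate 2 (25.7%), 7 in both (20%) and 21 in neither. For all 1021 peaks these were 401 (39.3%), 346 (33.9%), 225 (22.04%) and 499.

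**Figure D3:**
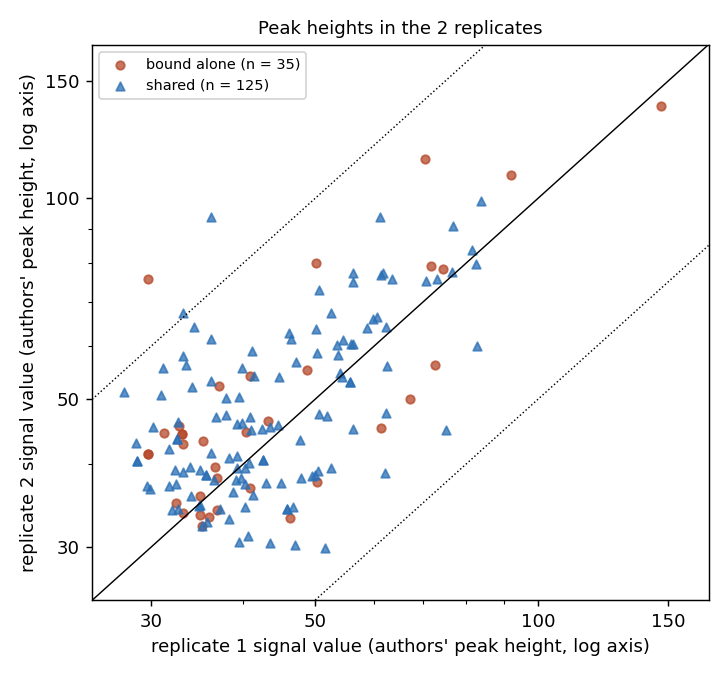
Height (signal value) of each peak in windows of unclassified ncRNA genes in replicate 1 (x axis) and replicate 2 (y axis), both on log axes, for the 35 peaks bound alone (circles) and the 125 shared peaks (triangles). The solid line marks equal heights and the dotted lines a 2-fold difference; 34 of the 35 circles and 123 of the 125 triangles lie between the dotted lines.

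The 7 peaks bound alone that were in both single-replicate lists were also the 7 tallest bound alone. C46C2.12 (chromosome IV, 9196813 to 9197110) led with 288, with 147 in replicate 1 and 137 in replicate 2, and ranked 7 among all 1021 peaks. Its summit lay 371 bp upstream of the start, outside coding genes.

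The peak at rpr-1, the gene of RNase P RNA (chromosome I, 13463955 to 13464207), came second with 205, with 92.0 in replicate 1 and 108 in replicate 2. Its summit lay 8 bp inside the gene, which sits in an intron of a coding gene. Every 31-base word around it occurred once in the genome, and no other match of 100 bases was found. Its window held the letters CGCGCC, which occurred in 4 of the 35 peaks bound alone (11.4%), 18 of the 125 shared peaks (14.4%), 162 of all 1021 (15.9%) and around 570 of the 7764 ncRNA starts (7.34%).

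WBGene00195021, a gene of 19 bp on chromosome IV (4725436 to 4725454), had 188, with 70.5 in replicate 1 and 115 in replicate 2, and its summit lay 142 bp upstream. Y82E9BR.30 on chromosome III had 147, with 74.3 and 78.3 in replicates 1 and 2, with the summit 852 bp upstream. T28D9.13 on chromosome II had 141, with 71.6 and 79.3, 636 bp upstream, and both of these summits lay in exons of coding genes. ZK930.13 on chromosome II had 138, with 72.5 and 56.4, 340 bp upstream of its start and outside coding genes. The peak of K08H10.14 and K08H10.15 had 129, with 50.2 and 79.9.

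The next genes bound alone were in the list of 1 replicate or of neither. C55B7.13, F36H1.17, R03E9.7 and the neighbours C07H6.15 and C07H6.17 had peaks of 119, 112, 102 and 97.1, each found in the list of replicate 1 and not in that of replicate 2. C16A3.15 had 96.6 and was the peak bound alone whose replicates lay furthest apart, with 29.8 in replicate 1 and 75.6 in replicate 2, and it was in the list of replicate 2. T04C12.14 and T04C12.15 (91.3), F07A11.9 (89.4), Y65B4BL.9 (87.2) and ZK829.13 (86.5) were in neither list. Among these, the summit lay 2 bp upstream of T04C12.14, 867 bp upstream of F07A11.9 and 805 bp upstream of ZK829.13. C52E4.15, with 83.0, had its summit 12 bp upstream of the start.

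The other RNAs of known function gave lower or no peaks. Of 14 unclassified ncRNA genes with a gene symbol, a list chosen after values were seen, rpr-1 and srpr-2.2 were bound. srpr-2.2 is 1 of 5 annotated genes of signal recognition particle RNA and lies on chromosome III (5031410 to 5031708, minus strand) in an intron of a coding gene. Its peak was 71.3, with 36.7 in replicate 1 and 39.6 in replicate 2, and its summit lay 111 bp inside the gene. The ranked list of the comparison, which also holds sites under the threshold, has 77086 sites. A ranked summit lay in the window of 4931 of all 7580 unbound ncRNA genes (65.1%), with a median height of 28.3. The copies srpr-2.1, srpr-3 and srpr-1.2 had ranked summits at 147, 175 and 68 bp inside the gene, with heights of 73.2, 45.3 and 40.7. Their −log10 global irreproducible discovery rates (IDR) were 1.10, 0.87 and 0.80, under the 2 that the conservative list reaches. The fifth copy, srpr-1.1, differed: its tallest ranked site lay 183 bp upstream of the start, outside the gene, with a height of 3.36 and a −log10 IDR of 0.07. At srpr-2.1 the replicates stood apart, with 20.003 in replicate 1 and 52.6 in replicate 2.

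The copies are alike in sequence. srpr-1.1 and srpr-1.2 were identical at 293 of 295 aligned columns (99.3%), srpr-2.2 and srpr-2.1 at 296 of 299 (99.0%), and srpr-2.2 and srpr-3 at 244 of 298 (81.9%). Reads can be hard to place between such copies, and the part of this in the differences between their sites was not tested. The share of 31-base words that occurred once in the genome was taken in a window centred on the middle of each gene. It was 28.9% for srpr-2.2, 27.4% for srpr-2.1, 24.4% for srpr-1.2, 13.3% for srpr-1.1 and 100% for srpr-3. The 200 bases around the summit at srpr-2.2, chrIII:5031497-5031696 on the minus strand, are shown because the summit lies within the RNA itself, and capitals mark bases of the gene.
srpr-2.2: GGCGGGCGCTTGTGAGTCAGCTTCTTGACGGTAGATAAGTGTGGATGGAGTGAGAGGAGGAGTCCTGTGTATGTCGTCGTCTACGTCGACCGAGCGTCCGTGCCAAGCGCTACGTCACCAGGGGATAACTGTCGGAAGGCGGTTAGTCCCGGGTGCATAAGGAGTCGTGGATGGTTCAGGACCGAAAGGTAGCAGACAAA

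The RNA of RNase MRP, mrpr-1, which trims ribosomal RNA precursors, had a ranked site of 32.6, with 19.9 in replicate 1 and 18.1 in replicate 2, and a −log10 IDR of 0.48. The Y RNA gene yrn-1 had 33.5 and a −log10 IDR of 0.27. tts-1, a long noncoding RNA that associates with ribosomes in long-lived worms, had 54.6, with 29.3 and 29.6 in replicates 1 and 2, and a −log10 IDR of 1.59, the highest among the 12 unbound genes of this list. linc-171 had no ranked summit in the window. None of these 12 genes reached the threshold, which does not show that the protein was absent from them. Ranked sites were common, lying in the windows of 65.1% of all unbound ncRNA genes. Such a site does not by itself show binding.

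Summits lay differently around the starts of the 2 kinds of bound gene. For the 36 genes bound alone the median position was 204.5 bp upstream of the start, with 26 upstream, 10 downstream and 12 over 500 bp upstream. For the 148 genes at shared peaks the median was 58.5 bp downstream, with 47 upstream, 100 downstream and 17 over 500 bp upstream. Of the shared summits, 37.2% lay 1 to 100 bp downstream and 30.4% lay in the next 100 bp, while 16.7% and 11.1% of those bound alone did. The 61 bound genes that overlap a tRNA gene on the opposite strand had a median of 69 bp downstream. Those that overlap snoRNA and snRNA genes had medians of 115 and 126 bp. The part of these overlaps in the difference was not tested, and genes at 1 peak are counted separately. The summit lay within the gene itself for 9 of the 36 genes bound alone and 72 of the 148 shared. For bound protein-coding genes summits gathered upstream, with 24.5% of 575 lying more than 100 and up to 250 bp upstream of the start.

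**Figure D4:**
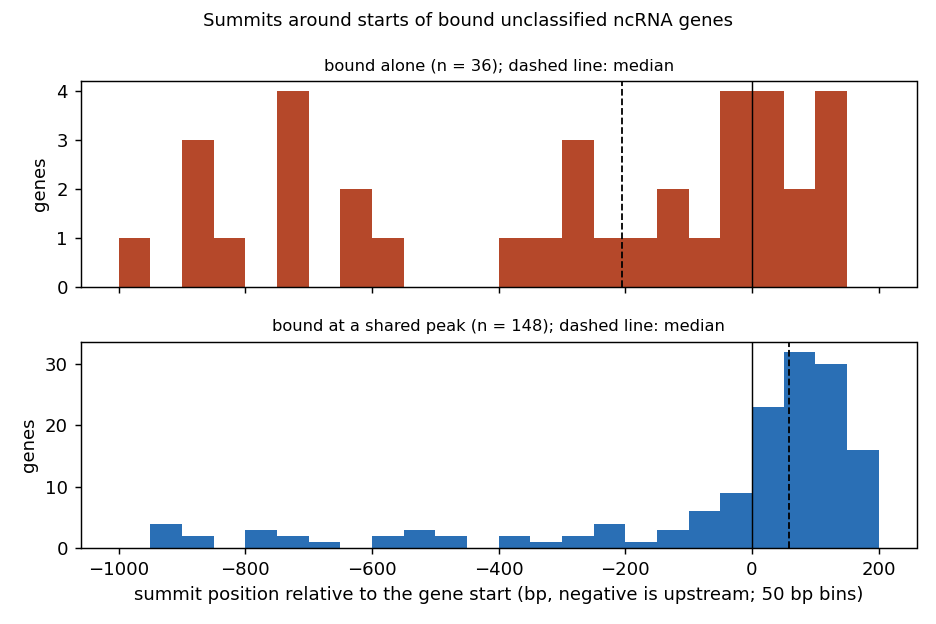
Position in bp of the summit relative to the start of each bound unclassified ncRNA gene, in 50 bp bins, for the 36 genes bound alone (top) and the 148 at shared peaks (bottom), with the start as a solid line and the median as a dashed line. Genes bound alone spread over the window with a median 204.5 bp upstream, and genes at shared peaks gather downstream of the start with a median of 58.5 bp.

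The 35 summits bound alone were not remote from coding genes. The nearest protein-coding start lay at a median of 1486 bp (390 to 6339 bp), and 12 of the 35 summits lay 200 to 1000 bp downstream of a coding start, outside the window for that reason. The nearest tRNA start was 219 bp away at the closest, at the peak of Y73B6BL.283, a gene counted as shared, and 136158 bp at the median. The nearest snoRNA start lay at a median of 57009 bp (485 to 446576 bp), and 4 of the 35 summits lay 200 to 1000 bp downstream of one. Y24D9A.11, counted as bound alone, overlaps a snoRNA gene on the opposite strand. Of the 35 summits, 10 lay in a coding gene's exon, 7 in an intron and 18 outside coding genes, against 19, 36 and 70 of the 125 shared summits. Of the 36 genes bound alone, 21 (58.3%) lay outside coding genes, as did 85 of the 148 shared genes (57.4%) and 54.1% of all 7764.

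The X chromosome held many unclassified ncRNA genes and few bound alone. It carries 2520 of the 7764 (32.5%), of which 40 were bound (1.59%, interval 1.14 to 2.16), against 144 of 5244 on the autosomes (2.75%, interval 2.32 to 3.22). Of the 40 on X, 39 were at shared peaks and 1 was bound alone, R03E9.7, with 61.5 in replicate 1 and 45.3 in replicate 2. A peak shared with a tRNA gene accounted for 31 of the 40 on X (77.5%), against 37 of the 144 on the autosomes (25.7%). Among genes whose window met that of a tRNA gene, 31 of 210 on X were bound (14.8%, interval 10.3 to 20.3), against 38 of 238 on the autosomes (15.97%, interval 11.6 to 21.3). Among genes whose window met none of the 4 classes, 1 of 1300 on X was bound (0.0769%, interval 0.00195 to 0.428), against 22 of 2634 on the autosomes (0.835%, interval 0.524 to 1.26). Protein-coding genes showed the same direction, with 15 of 2731 bound on X (0.549%) and 560 of 17242 on the autosomes (3.25%).

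**Figure D5:**
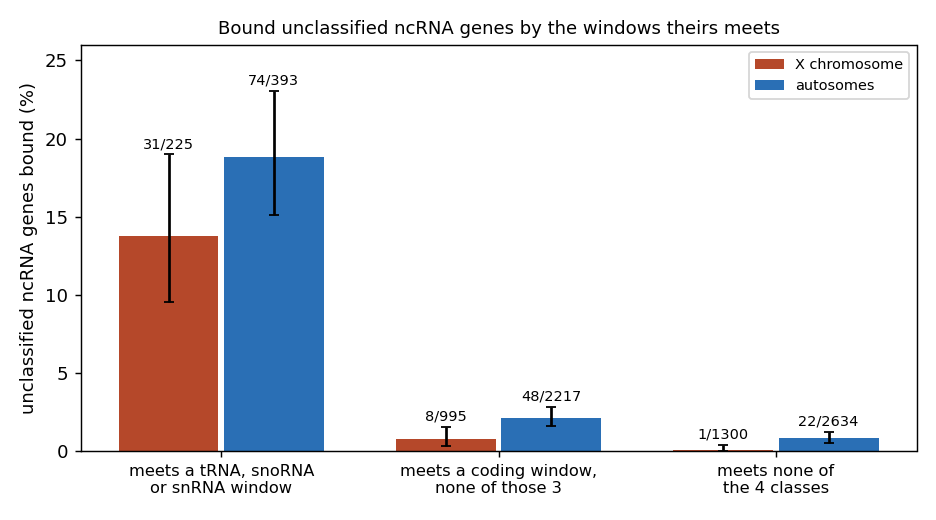
Percent of unclassified ncRNA genes bound on the X chromosome (left bar of each pair) and on the autosomes (right bar), by the gene classes whose windows theirs meets, with exact 95% intervals and the number bound of all genes in each bar. Bars beside tRNA, snoRNA or snRNA genes are highest on both (31 of 225 and 74 of 393), and the bars away from the 4 classes are lowest (1 of 1300 and 22 of 2634).

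Base composition differed little between the groups. The median GC content of the 300 bases around the summit was 41.3% for peaks bound alone, 44% for shared peaks and 39.7% for all 1021, and 40% around the starts of all 7764 genes. Windows in which under 50% of 31-base words occurred once in the genome made up 6 of the 35 bound alone (17.1%), 1 of the 125 shared (0.8%), 83 of all 1021 (8.13%) and 264 of the 7764 starts (3.40%). The 6 windows lay at Y47G6A.34 with 2 of its peaks, srpr-2.2, F41D3.16, K02E11.15 and Y24D9A.11. The letters CTGTTTCA, the core of a motif found upstream of piRNA genes, occurred in 0 of 35 peaks bound alone, 1 of 125 shared and 12 of all 1021 (1.18%).

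Some genes lay close to the edge of the window. Just inside, Y69A2AR.37 (197 bp downstream, 91.6) and F38E11.24 (194 bp downstream, 76.9) were counted, as were C16A3.15 (982 bp upstream, 96.6) and M28.13 (945 bp upstream, 77.5). Just outside, F58G1.12 (201 bp downstream, 113), WBGene00195561 (207 bp downstream, 89.4), ZK970.11 (1003 bp upstream, 78.6) and F08G2.12 (1015 bp upstream, 80.8) were not. WBGene00195561 is 1 of 2 genes named Y38A10A.8, and the other, WBGene00202143, was bound at the same peak, 58 bp upstream of its start. Within 100 bp outside the downstream edge lay the nearest summits of 11 unbound genes, and of 5 outside the upstream edge.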

How the data were processed

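Peaks were called by the authors on ce11, the assembly named in the labels; the sources used here do not name the aligner, the peak caller or its control. The 4 deposited thresholded lists were used (conservative, pooled, replicate 1, replicate 2), each with the authors' signal value per peak. The ranked comparison list, as deposited, adds the −log10 of the global IDR and a signal value for each replicate, tied to replicates by identical values in the single-replicate ranked lists (1013 and 1014 of the 1021 peaks).

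Starts came from Ensembl release 115 and sequence from the RefSeq WBcel235 genome. Windows ran 1000 bp upstream to 200 bp downstream of every annotated start, on 6 nuclear chromosomes. Shares have exact Clopper-Pearson 95% intervals, counting error only. Matches of 300-base windows were sought with BLAST+ 2.17.0 (at least 100 bases, E-value up to 1e-05), and pairs were aligned with Biopython 1.88. Python 3.11.15, pandas 2.3.3 and scipy 1.17.1 were used, and window assignment was tested on simulated data.

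Genes named are the 20 bound alone and 12 shared with the tallest peaks, the 3 peaks with most genes, and those at window edges; others are named as chosen after values were seen, which holds for the symbol list, the tRNA and B box examples and K02E11.15. The genes, classes, motifs and rules were chosen with earlier results of these data known. With 2 replicates of 1 group, no test was run. Alternative windows, lists and start rules are given in the closing section. Windows with UTR bases are not shown.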

Additional observations from a re-analysis of the deposited data

Results flagged for a closer look

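The ranked comparison list holds 44 sites with a −log10 global IDR of 2 or more that are not in the conservative list, and 2 of them lay in windows of unclassified ncRNA genes and were left out of every count above. They are singled out because they pass the threshold in a list outside the main measurement. The taller one, 231 bp upstream of Y97E10B.12 on chromosome V, had a height of 239, with 140 in replicate 1 and 101.1 in replicate 2. The other, 569 bp upstream of K01F9.6 on chromosome III, had a height of 109, with 55.6 in replicate 1 and 37.5 in replicate 2. Neither lay in the window of another gene. Why these sites are absent from the conservative list is not given in the sources used here, and no control was analysed here to set them against.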

How the results depend on the processing

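Of 55 recomputed values over 6 results and 11 settings, 33 stayed within 1.5 times the reported count, or within the 95% interval of the reported share or median, and 22 did not. With peaks at or above the median height of the list, 108 genes were bound (1.39%), 20 of them alone, at 87 peaks, with medians of 107 for peaks bound alone and 102 for shared peaks, since the lower peaks are left out. With a window of 500 bp upstream to 100 bp downstream, 110 genes were bound (1.42%) at 105 peaks, and with 2000 bp upstream to 500 bp downstream 3.05% were bound. Counting protein-coding genes alone as the class that ends a gene's being bound alone, in place of the 4 classes, gave 102 genes bound alone. With the list of 1 replicate in place of the comparison, 69 to 72 genes were bound (0.889% to 0.927%), 12 to 14 alone, at 61 peaks in each list, with medians of 67.1 to 78.3 for peaks bound alone and 55.2 to 61.1 for shared peaks, on the heights of those lists.

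The genes called alone depend on the window more than their number does: 20 of the 36 were still bound alone with the wider window, where 16 shared a peak, and 29 of the 36 with the pooled list. With the lists of replicate 1 and replicate 2, 14 and 10 of the 36 were bound alone. No paired analysis was possible because there is 1 group and no test. The main limits are the unknown depth, the absence of a control among the data analysed here, windows that overlap between neighbouring genes, and sequence copies in which reads can be hard to place.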

Other observations

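Some peaks in these windows have a low pooled height beside ordinary replicate heights. Of the 160 peaks, 10 had a height under 30, 3 bound alone and 7 shared, against 58 of all 1021. At each of the 10 the nearest other summit lay 199 to 216 bp away in an overlapping peak with a height of 64.0 to 98.3. At Y47G6A.34 the 2 overlapping peaks had heights of 3.08 and 73.4, and both were listed with 33.0 in replicate 1 and 44.3 in replicate 2.

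Unclassified ncRNA genes that share a name with another count separately by identifier. In all, 1027 of the 7764 did so, and 8 of these 1027 were bound, against 184 of all 7764 (2.37%). At F36H12.65, 2 genes of this name occupy the same 81 bp on opposite strands of chromosome IV, and a peak of 63.7 lay 25 bp upstream of one and 105 bp downstream of the other.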
